A study of Rattus norvegicus with 56 samples.

Results

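The microRNAs described here are the guide strands miR-146a-5p, miR-146b-5p and miR-155-5p, 3 of the 682 mature microRNAs listed in rat myocardium, amniotic fluid or maternal serum. They were chosen by name, because miR-146a-5p and miR-155-5p had been seen to be higher in myocardium exposed to dimethadione (DMO), and miR-146b-5p was added as the close relative of miR-146a-5p. Their levels in DMO-exposed myocardium against control myocardium are therefore given as a description, with no test. In myocardium and in maternal serum all 3 passed the filter on low counts, and in amniotic fluid 2 did, miR-155-5p being too rare.

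The samples came from Sprague-Dawley rats at embryonic day D19. Dams of the DMO group were gavaged with DMO, the active metabolite of the anticonvulsant trimethadione and a cause of heart malformation in rat fetuses (60 mg/ml, 5 ml/kg, 6 doses 12 h apart, the first on D8), and dams of the NC group received distilled water instead. Exposed fetuses with a ventricular septal defect and normal great vessels made up the VSD group, and exposed fetuses whose septum was intact made up the non-VSD group. Myocardium and amniotic fluid were sequenced from 7 samples of each of the NC, VSD and non-VSD groups, and serum from 7 NC and 7 VSD dams, 56 samples in all. Both fetal groups that received DMO thus share the exposure and differ in the defect, and their dams and litters are not given in the sources used here, so that p-values cover the spread between these samples only.

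miR-146a and miR-146b are made from separate genes and repress the adaptors Traf6 and Irak1. miR-146a is switched on by NF-κB after Toll-like receptor or cytokine signals, so that its repression of these adaptors closes a negative feedback loop. miR-155 is processed from the transcript Mir155hg, is abundant in activated macrophages and lymphocytes, and represses brakes on inflammatory signalling such as Socs1 and Inpp5d. None of the 3 is a heart muscle microRNA in the way that miR-1 or miR-133 is.

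The mature sequences are printed from RefSeq (build GRCr8), 5′ to 3′, with the seed (bases 2 to 8, which pair with targets) in capitals, because the seed decides which members can share targets. The build behind the deposited counts is not given in the sources used here.
miR-146a-5p: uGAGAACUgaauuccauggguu
miR-146b-5p: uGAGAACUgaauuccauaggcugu
miR-155-5p: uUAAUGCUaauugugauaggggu
miR-146a-5p lies at chr10:28350053-28350074 on the minus strand, within the span of the long non-coding RNA gene LOC134480673. miR-146b-5p lies at chr1:255144874-255144897 on the plus strand, within the span of the protein-coding gene C1h10orf95. miR-155-5p lies at chr11:37261117-37261139 on the plus strand, within its host gene Mir155hg. Both miR-146 sequences share the seed and the first 17 bases, and 20 of the 22 positions of miR-146a-5p were identical in miR-146b-5p. They differ by G18A and U21C, counted from the 5′ end with the base of miR-146a-5p first, and by 2 further bases at the 3′ end of miR-146b-5p. A read cut off within the shared stretch cannot be assigned to either, and how the authors' counting treated such reads is not given in the sources used here. No other of the 693 rat microRNAs in the RefSeq table carried the miR-146 seed, and none shared that of miR-155-5p.

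Libraries of myocardium held between 1694811 and 9371130 counts, libraries of serum between 147609 and 581350, and libraries of amniotic fluid between 78188 and 331787. Levels are given as CPM, that is, counts scaled to a total of 1000000 per library after TMM normalization within a tissue. Amniotic fluid was sequenced with another library kit and instrument than myocardium and serum, so levels were compared within a tissue, and across tissues only as places in the order of abundance. Among the myocardium libraries, NC replicate 2 stood apart, with a mean correlation of 0.905 with the other NC libraries (up to 0.965 for the others), and its summed heart and skeletal muscle microRNAs were the lowest of all at 4079 CPM. VSD replicates 1 and 4 were the next lowest at 5426 and 7311 CPM, the library after them held 19595 CPM, and the NC libraries reached 99040 CPM. Serum libraries held between 1760 and 16237 CPM of the same 6 microRNAs, on a scale of their own, so the sums are not compared across tissues. Whether these 3 myocardium libraries hold less muscle was not tested. Fold changes of the members in myocardium were therefore also computed with each of these libraries left out in turn, not with all 3 left out together.

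miR-146a-5p was higher in the myocardium of both DMO groups than in NC myocardium. Its level was between 179.57 and 310 CPM in the 7 NC samples (median 218), between 451 and 539 CPM in the 7 VSD samples (median 511), and between 293 and 666 CPM in the 7 non-VSD samples (median 360). Every VSD sample lay above every NC sample, and 6 of the 7 non-VSD samples did. The VSD samples were also close to each other, with a mean of 497 ± 36.1 CPM (SD, n = 7), whereas non-VSD samples spread over 403 ± 131 CPM (SD, n = 7) and NC samples over 233 ± 56.4 CPM (SD, n = 7). The fitted log2 fold change (edgeR) was 1.09 with a standard error of 0.18 in VSD against NC. It was 0.83 ± 0.23 (SE) in non-VSD against NC, and 0.94 ± 0.17 (SE) in all 14 exposed samples against the same NC samples.

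These differences belong to the reason for the choice and carry no test. For the background, edgeR's quasi-likelihood test placed 0.426% of the 469 microRNAs tested in VSD against NC at a Benjamini-Hochberg adjusted p under 0.05, 0.219% of 456 in non-VSD against NC, and 8.49% of 483 in all exposed samples against NC. In VSD against NC, 0.64% of the tested microRNAs had all 7 VSD samples above all 7 NC samples, and in non-VSD against NC 0.439% did. Without NC replicate 2, the log2 fold change of miR-146a-5p was 1.12 in VSD and 0.91 in non-VSD myocardium, and without VSD replicate 1 or 4 it was 1.03 or 1.12 in VSD myocardium. In the order of fold changes in VSD against NC, its neighbours were miR-200a-3p at 1.10 and miR-539-3p at 1.08, and in all exposed samples against NC they were miR-136-5p at 1.01 and miR-7b at 0.93.

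miR-155-5p was also higher in exposed myocardium, but with 2 VSD libraries far above the rest. It was between 41.6 and 87.2 CPM in NC samples (median 69.5), between 56.3 and 283 CPM in VSD samples (median 87.6) and between 87.9 and 174 CPM in non-VSD samples (median 103). All 7 non-VSD samples lay above all 7 NC samples, whereas 4 of the 7 VSD samples did. The highest VSD values were 283 CPM in replicate 3, the smallest of the myocardium libraries, and 213 CPM in replicate 2, and the other 5 VSD samples reached at most 91.9 CPM. The fitted log2 fold change was 0.85 ± 0.35 (SE) in VSD and 0.75 ± 0.21 (SE) in non-VSD against NC. Without VSD replicate 3 the former was 0.41 ± 0.29 (SE), and without NC replicate 2, VSD replicate 1 or VSD replicate 4 it was 0.72, 0.94 or 0.97. Its neighbours in the order of fold changes in VSD against NC were miR-124-3p at 0.86 and miR-200b-3p at 0.83.

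miR-146b-5p, which has the same seed as miR-146a-5p, did not share its direction. It was the more abundant of the pair in every myocardium library except VSD replicate 7, at 911 to 1893 CPM in NC (median 1031), 477 to 1140 CPM in VSD (median 965) and 605 to 984 CPM in non-VSD samples (median 778). Of the non-VSD samples, 5 of 7 lay below all NC samples, and of the VSD samples 2 of 7. The log2 fold change was -0.32 ± 0.22 (SE) in VSD against NC, -0.50 ± 0.20 (SE) in non-VSD against NC and -0.43 ± 0.17 (SE) in all exposed samples. The size of these values rested in part on 2 libraries that lay far from their groups. Without VSD replicate 7 (477 CPM) the VSD value was -0.21 ± 0.19 (SE), and without NC replicate 3 (1893 CPM) it was -0.24, with -0.34 in non-VSD against NC and -0.26 in all exposed samples. Without NC replicate 2, VSD replicate 1 or VSD replicate 4 the VSD value was -0.41, -0.39 or -0.31. The VSD value also depended on the scaling: with library size alone in place of TMM it was 0.13, a setting that moved the median of all tested microRNAs from -0.05 to 0.32. The same setting gave 1.46 for miR-146a-5p.

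**Figure D1:**
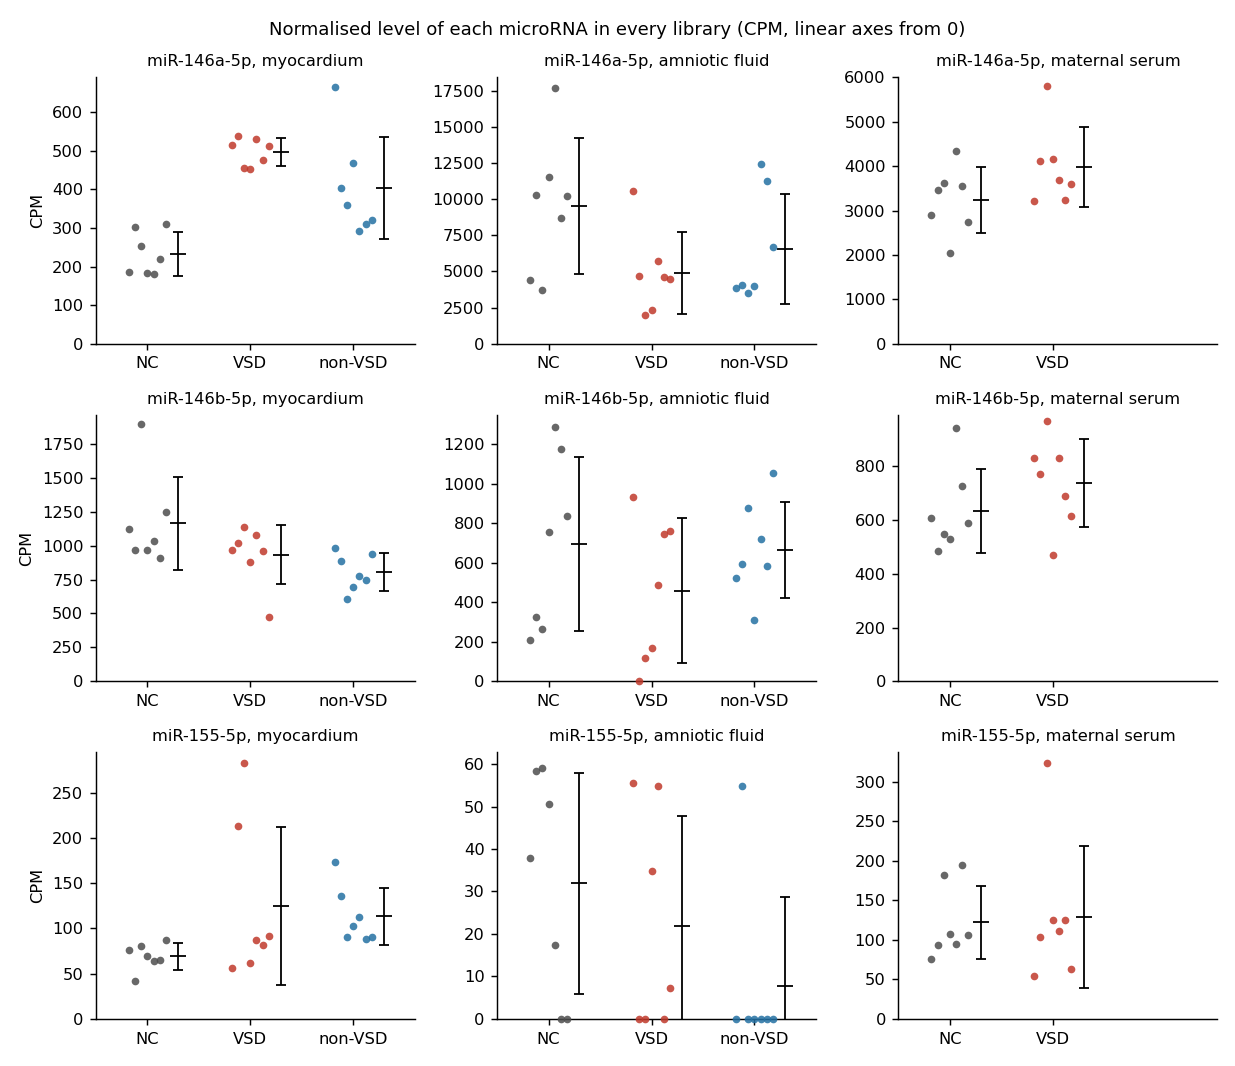
CPM (vertical axes, linear, from 0) of miR-146a-5p, miR-146b-5p and miR-155-5p in rows, in myocardium, amniotic fluid and maternal serum in columns; each point is 1 library, and the bar beside each group is its mean ± SD (n = 7, lower ends cut at 0). The 7 VSD myocardium points of miR-146a-5p sit between 451 and 539 CPM, above the highest NC point at 310 CPM, whereas the groups overlap in amniotic fluid and serum.

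A scaling factor multiplies both microRNAs of a library alike, so the balance within the miR-146 pair was read as the share of miR-146a-5p among the counts of both. In NC myocardium the share was between 11.8% and 23.8% (median 15.9%), in VSD myocardium between 28.5% and 51.7% (median 33.8%), and in non-VSD myocardium between 25.4% and 40.4% (median 31.3%). All 14 exposed samples lay above all 7 NC samples. The means were 17.1% ± 4.10 in NC, 35.7% ± 7.41 in VSD and 33.1% ± 6.25 in non-VSD myocardium (SD, n = 7 each). Since the share contains the measure on which miR-146a-5p was chosen, its separation from NC is in part built in, and it too has no test against NC. How often the shares of other microRNA pairs separate these groups was not computed. At least 3000 counts of the pair stood behind each of the 21 values. NC replicate 2 had the highest NC share, and without it the NC mean was 16.0%.

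Summed over the pair, the TMM-scaled levels with the miR-146 seed overlapped between the groups. The sum was 1397 ± 360 CPM in NC, 1428 ± 216 CPM in VSD and 1208 ± 227 CPM in non-VSD myocardium (SD, n = 7 each). Its ranges ran from 1130 to 2147 CPM in NC, from 988 to 1607 CPM in VSD and from 964 to 1650 CPM in non-VSD samples. The exposed samples thus differed from NC in the share, which contains the measure of the choice, whereas the TMM-scaled totals overlapped. Unlike the share, the totals depend on the scaling. With library size alone, miR-146a-5p and miR-146b-5p had log2 fold changes of 1.46 and 0.13 in VSD against NC. The sum was not computed with that scaling.

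**Figure D2:**
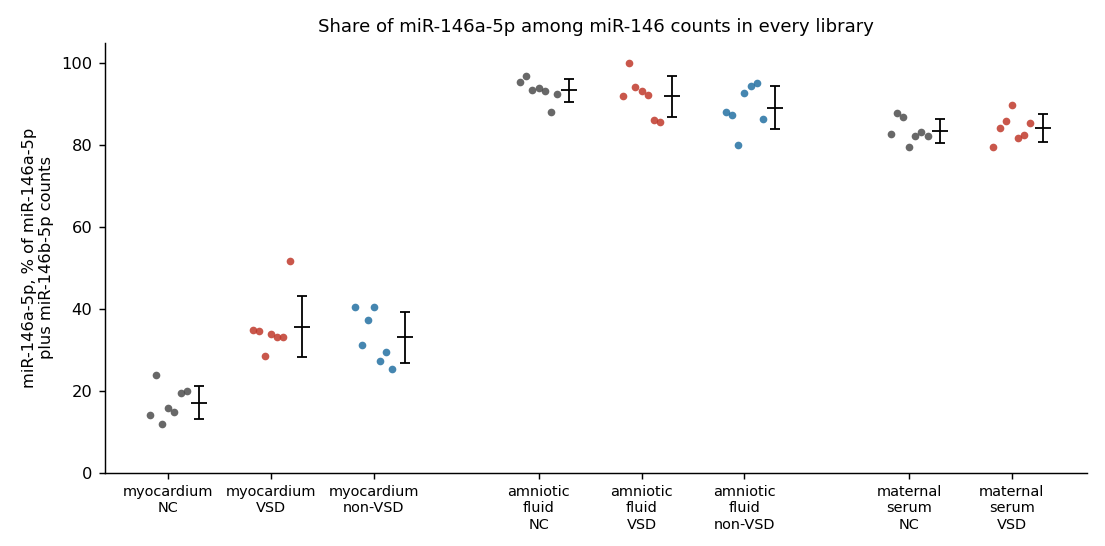
Share of miR-146a-5p among miR-146a-5p plus miR-146b-5p counts (vertical axis, percent) in the 8 groups; each point is 1 library and the bar beside it is the mean ± SD (n = 7). The shares run from 11.8% to 23.8% in NC myocardium and from 25.4% to 51.7% in exposed myocardium, and lie at 79.5% or more in serum and 80.1% or more in amniotic fluid.

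The comparison of VSD with non-VSD myocardium asks whether the members followed the defect among exposed fetuses, and the choice of members did not use it. edgeR's quasi-likelihood test in a fit of all 21 libraries called 0 of 483 microRNAs (0.0%) at an adjusted p under 0.05, with 56 at an unadjusted p under 0.05 and 0 called by DESeq2 and by limma. miR-146a-5p was higher in VSD than in non-VSD samples by a log2 fold change of 0.30 ± 0.19 (SE), with an adjusted p of 0.475 (edgeR's quasi-likelihood test, Benjamini-Hochberg), and by 0.29 or 0.32 without VSD replicate 1 or 4. Of the 7 VSD samples all lay above the non-VSD median of 360 CPM, and the highest non-VSD sample, replicate 1 at 666 CPM, lay above all of them. An exact permutation test of the mean log2 CPM gave a two-sided p of 0.0524, and 0.417 after adjustment over the 20 exact tests made here. miR-146b-5p differed by 0.21 ± 0.20 (SE; adjusted p = 0.607, edgeR). miR-155-5p differed by 0.14 ± 0.32 (SE; adjusted p = 0.821, edgeR), and by -0.26 without VSD replicate 3. The share of miR-146a-5p differed by 2.59 percentage points between VSD and non-VSD samples (exact permutation p = 0.522, two-sided). None of these differences between the exposed groups therefore reached an adjusted p under 0.05, which does not show that the groups were equal. In data simulated for this comparison with 200 microRNAs changed at once, the same test recovered 48.5% of 2-fold and 97.3% of 4-fold changes. These rates do not hold for a single changed microRNA, which was not simulated.

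The myocardium was sequenced as bulk tissue, in which fewer cells of a type and less RNA per cell cannot be told apart. All 5 microRNAs of a white blood cell list (miR-142-3p, miR-142-5p, miR-150-5p, miR-223-3p and miR-342-3p) were measured in myocardium. Their summed level was 665 to 4105 CPM in NC (median 1712), 744 to 1455 CPM in VSD (median 901) and 778 to 2209 CPM in non-VSD samples (median 948). Of the list, 1 of 5 was called in all exposed samples against NC by edgeR, where 8.49% of all tested microRNAs were called. DESeq2 called 2 of 5, and 66 of all 483 tested. The member called by edgeR was miR-142-5p, a microRNA of blood-forming cells, which fell by 2.09 ± 0.55 (SE) on the log2 scale (adjusted p = 0.0228, edgeR's quasi-likelihood test, and 0.0531, 0.0608 and 0.0557 without NC replicate 1, 3 or 7). miR-223-3p, the myeloid microRNA, differed by 0.09 ± 0.15 (SE; adjusted p = 0.802, edgeR). The summed level of 4 red blood cell microRNAs was 2651 to 91132 CPM in NC (median 33788), 3435 to 25158 CPM in VSD (median 7523) and 3255 to 33984 CPM in non-VSD samples (median 7003). edgeR called all 4 lower in all exposed samples against NC, with log2 fold changes of -1.76 (miR-451-5p) to -2.21 (miR-144-5p), of which 2 were not called with library size alone, and miR-451-5p in only 11 of 21 fits that left out 1 library. A list of 8 epithelial microRNAs summed to 251 to 14234 CPM in NC, with NC replicate 2 the highest, to 1984 to 15250 CPM in VSD samples, with VSD replicate 1 the highest, and to 322 to 6580 CPM in non-VSD samples (medians 1366, 3265 and 1697). Its 8 members had log2 fold changes of 0.70 to 1.58 in VSD against NC and of -1.08 to -0.07 in non-VSD against NC, with lowest adjusted p-values of 0.281 and 0.623 (edgeR). Both endothelial microRNAs, miR-126a-3p and miR-126a-5p, summed to 11476 to 23906 CPM in NC (median 14949), 14970 to 22037 CPM in VSD (median 20403) and 20265 to 31235 CPM in non-VSD samples (median 22596). The epithelial and the endothelial sums thus both had higher medians in VSD and in non-VSD than in NC samples. miR-126a-3p was called higher in all exposed samples by 0.54 ± 0.16 (SE; adjusted p = 0.0339, edgeR's quasi-likelihood test), and in 8 of 21 fits that left out 1 library. The other endothelial microRNA, miR-126a-5p, differed by only 0.06 ± 0.22 (SE, adjusted p = 0.914, edgeR) in all exposed samples. Its values were 0.18 in VSD and -0.03 in non-VSD against NC. The part of these cells in the levels of the 3 members was not tested.

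Further microRNAs known to respond to inflammatory signals were read from a list of 18, all of which were listed and tested in myocardium. In all exposed samples against NC, 9 of the 18 had a log2 fold change above 0 and 9 below, with a median of 0.04 (all tested microRNAs: -0.06). The list had 1 member called, miR-29b-3p, a regulator of collagen and other matrix genes, which rose by 1.06 ± 0.25 (SE) on the log2 scale (adjusted p = 0.0157, edgeR's quasi-likelihood test, and 0.0518 without NC replicate 1). miR-132-3p, which follows CREB and is induced in monocytes by bacterial products, had a value of 0.83 ± 0.29 (SE; adjusted p = 0.0801, edgeR). miR-21-5p, an NF-κB- and AP-1-responsive microRNA raised in many inflamed tissues, had a value of -0.19 ± 0.16 (SE; adjusted p = 0.542, edgeR). edgeR called 0 of the 18 in VSD against NC (3 at an unadjusted p under 0.05, 3 called by DESeq2, 0 by limma, list median 0.14). Of all 469 microRNAs tested there, 90 were at an unadjusted p under 0.05 and DESeq2 called 46. edgeR also called 0 in non-VSD against NC (2 at an unadjusted p under 0.05, 2 called by DESeq2, 0 by limma, list median 0.00). Of all 456 tested there, 80 were at an unadjusted p under 0.05 and DESeq2 called 48. A call for 1 of 18 lies near the 8.49% called among all microRNAs in that comparison. The list, which does not contain the 3 members, thus held values of both signs in exposed myocardium. Whether an inflammatory response took place there was not tested.

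In amniotic fluid, where the choice of members used no values, miR-146a-5p had lower, not higher, medians in the exposed groups. Its level was 3708 to 17649 CPM in NC (median 10217), 1961 to 10554 CPM in VSD (median 4632) and 3526 to 12435 CPM in non-VSD samples (median 4092). The groups overlapped, with 6 of the 7 VSD samples below the NC median. In VSD against NC the log2 fold change was -0.94 ± 0.38 (SE), with an unadjusted p of 0.0229 and an adjusted p of 0.251 (edgeR's quasi-likelihood test, Benjamini-Hochberg). The exact permutation test gave a two-sided p of 0.0460, and 0.417 adjusted over the 20 tests. Among the 245 microRNAs tested, edgeR called 0 (0.0%), with 33 at an unadjusted p under 0.05, 0 called by DESeq2 and 1 by limma.

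The non-VSD group gave a smaller value of the same sign for miR-146a-5p, -0.47 ± 0.36 (SE; adjusted p = 0.518, edgeR), in a comparison where 4.96% of 242 microRNAs were called. All exposed samples together gave -0.75 ± 0.33 (SE; adjusted p = 0.255, edgeR), where 0.733% of 273 were called. These comparisons share the NC samples. VSD against non-VSD fluid gave -0.41 ± 0.39 (SE; adjusted p = 0.857, edgeR), where edgeR called 0 of 273 (0.0%), with 29 at an unadjusted p under 0.05, 6 called by DESeq2 and 0 by limma. In data simulated for VSD against NC fluid with 200 microRNAs changed at once, the test recovered 19.6% of 2-fold and 68.3% of 4-fold changes. A single changed microRNA was not simulated, so its rate of detection is not known.

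miR-146b-5p was the minor member in amniotic fluid. It reached 208 to 1285 CPM in NC (median 758), 0 to 932 CPM in VSD (median 486) and 311 to 1053 CPM in non-VSD samples (median 595). The sample at 0 was VSD replicate 2, where 389 counts of miR-146a-5p were found. The log2 fold change was -0.59 ± 0.67 (SE; adjusted p = 0.744, edgeR) in VSD against NC and 0.02 ± 0.43 (SE; adjusted p = 0.982, edgeR) in non-VSD against NC. The share of miR-146a-5p was 93.3% ± 2.76 in NC, 91.9% ± 4.94 in VSD and 89.2% ± 5.34 in non-VSD fluid (SD, n = 7 each). It differed from NC with an exact permutation p of 0.513 in VSD and 0.0927 in non-VSD samples, both two-sided and 0.653 and 0.417 when adjusted.

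miR-155-5p was near the limit of detection in amniotic fluid. The 7 NC samples held 29 counts in sum with 2 samples at 0, the VSD samples 25 counts with 3 at 0, and the non-VSD samples 18 counts with 6 at 0. All 18 counts of the non-VSD group came from replicate 2, the deepest library. In the smallest library, 0 counts are compatible with as much as 40.9 CPM (3 counts, counting error only), which lies above the NC median of 37.8 CPM. The exact permutation p was 0.452 in VSD and 0.0699 in non-VSD against NC (two-sided, adjusted 0.646 and 0.417), so no difference was detectable at this depth.

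Inflammation-responsive and cell type lists were read in the fluid as well. Of the inflammation list, 17 of 18 were listed and 12 tested in non-VSD against NC, of which edgeR called 1 (all tested microRNAs: 4.96%) and DESeq2 called 2 (all tested microRNAs: 29 of 242). The former was miR-27b-3p, abundant in endothelium and epithelium, which fell by 1.41 ± 0.30 (SE) on the log2 scale (adjusted p = 0.0272, edgeR's quasi-likelihood test, and 0.0671, 0.0660 and 0.0522 without NC replicate 1, NC replicate 3 or non-VSD replicate 5). The same microRNA, 1 of 13 tested, fell by 1.13 ± 0.24 (SE) in all exposed samples, where 0.733% of all tested microRNAs were called (adjusted p = 0.0178, edgeR, and 0.0544, 0.0534 and 0.0508 without NC replicate 3, NC replicate 6 or VSD replicate 4). The summed white blood cell microRNAs were 1519 to 8207 CPM in NC, 2056 to 34538 CPM in VSD and 3366 to 28855 CPM in non-VSD fluid. The red blood cell sum was 15044 to 34791 CPM in NC, 18119 to 143480 CPM in VSD and 25425 to 86089 CPM in non-VSD fluid. In non-VSD against NC, miR-451-5p was called higher by 2.51 ± 0.63 (SE) and miR-486 by 1.20 ± 0.30 (SE), both with an adjusted p of 0.0272 (edgeR), in 7 and 6 of 14 fits that left out 1 library. The endothelial sum was 511 to 2176 CPM in NC, 156 to 3945 CPM in VSD and 933 to 4286 CPM in non-VSD fluid. Of its 2 microRNAs, miR-126a-3p was called higher in non-VSD against NC by 1.54 ± 0.44 (SE; adjusted p = 0.0464, edgeR), in 5 of 14 such fits. The other, miR-126a-5p, had a value of -0.36 ± 0.97 (SE, adjusted p = 0.868, edgeR) there and of -0.89 in VSD against NC. Epithelial microRNAs were at 89566 to 144440 CPM in NC, 56903 to 152210 CPM in VSD and 53400 to 121410 CPM in non-VSD samples. Their part in the values of miR-146a-5p was not tested.

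In maternal serum, the levels of VSD and NC dams overlapped for all 3 members. miR-146a-5p was at 2042 to 4332 CPM in NC dams (median 3471) and 3219 to 5818 CPM in VSD dams (median 3701). The log2 fold change was 0.30 ± 0.20 (SE; adjusted p = 0.539, edgeR), and the exact permutation p was 0.104 (two-sided, adjusted 0.417). miR-146b-5p was at 483 to 941 CPM in NC (median 590) and 469 to 966 CPM in VSD dams (median 772), a log2 fold change of 0.23 ± 0.20 (SE; adjusted p = 0.656, edgeR). Neither difference reached an adjusted p under 0.05.

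miR-155-5p in serum was at 76.1 to 195 CPM in NC (median 106) and 54.8 to 323 CPM in VSD dams (median 111). A single dam, VSD replicate 3, held the highest level of each of the 3 members in serum, and the next VSD sample for miR-155-5p was at 125 CPM. The log2 fold change was 0.10 ± 0.35 (SE; adjusted p = 0.894, edgeR), and -0.27 without that dam. edgeR called 0 of the 219 microRNAs tested in serum (0.0%), with 30 at an unadjusted p under 0.05, 4 called by DESeq2 and 0 by limma. The summed white blood cell microRNAs were 42614 to 80850 CPM in NC and 56076 to 103430 CPM in VSD dams, with VSD replicate 3 the lowest of its group, and edgeR called 0 of 5, with 0 at an unadjusted p under 0.05 and 0 called by DESeq2 and by limma. The share of miR-146a-5p was 83.5% ± 2.87 in NC and 84.2% ± 3.35 in VSD dams (SD, n = 7 each; exact permutation p = 0.698, two-sided).

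**Figure D3:**
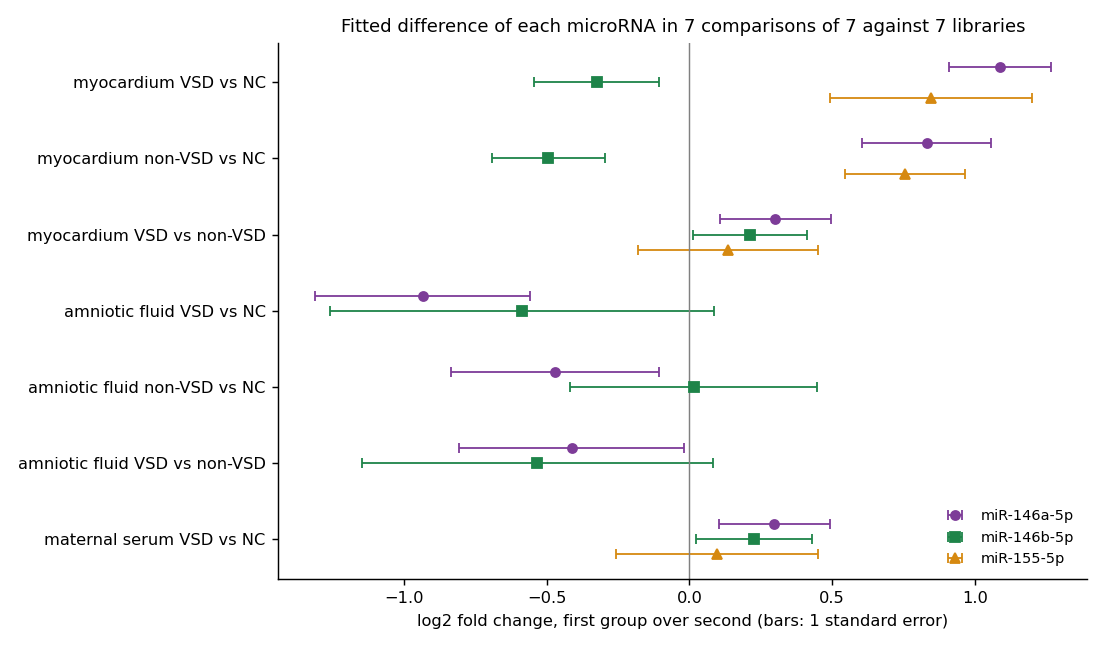
Fitted log2 fold changes (horizontal axis) with 1 standard error for the 3 members in 7 comparisons (vertical axis), each of 7 against 7 libraries; miR-155-5p failed the filter in amniotic fluid and has no point there. In myocardium against NC, miR-146a-5p (1.09 and 0.83) and miR-155-5p (0.85 and 0.75) lie above 0 and miR-146b-5p (-0.32 and -0.50) below it, while in amniotic fluid miR-146a-5p lies between -0.94 and -0.41.

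The members held different places in the order of abundance of the 3 tissues. miR-146a-5p had a median place of 119 among the 661 microRNAs listed in myocardium, 40 of 523 in amniotic fluid and 30 of 518 in serum. miR-146b-5p had a median place of 79 in myocardium, 132 in amniotic fluid and 75 in serum, and miR-155-5p of 203, 272 and 143. The pair therefore changed order: miR-146b-5p led in myocardium, and miR-146a-5p in every library of amniotic fluid and serum. Myocardium and serum were made with the same library kit, and their miR-146a-5p shares did not overlap, at 11.8% to 51.7% against 79.5% to 89.9%. They differ in the extraction, from wax blocks and from fluid, as well as in tissue and in fetal or maternal origin, and these cannot be told apart.

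Across libraries of a tissue, the members were only loosely related. Over the 21 myocardium libraries, Pearson's r of log2 CPM was 0.47 between miR-146a-5p and miR-155-5p, 0.17 once group means were removed, and -0.27 between miR-146a-5p and miR-146b-5p, 0.20 once they were removed. Over the 21 amniotic fluid libraries the pair of miR-146 had an r of 0.48, and over the 14 serum libraries of 0.52. The libraries of a tissue share a scaling and differ in depth, and these values are given as a description.

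The microRNAs with the pattern most like miR-146a-5p over the 21 myocardium libraries were miR-708-5p (r of 0.83), miR-181d-5p (0.80) and miR-190a-5p (0.79). For miR-155-5p they were miR-29c-5p (0.89), miR-335 (0.80) and miR-3068-5p (0.78), and for miR-146b-5p miR-7a-5p (0.72), miR-423-3p (0.63) and let-7i-5p (0.61). In amniotic fluid, miR-299a-5p (0.74) and miR-221-3p (0.69) were nearest to miR-146a-5p, and miR-150-5p, a lymphocyte microRNA, was nearest to miR-146b-5p (0.85). In serum, miR-192-5p (0.75), a liver and gut microRNA, was nearest to miR-146a-5p, miR-15b-3p (0.76) to miR-146b-5p, and miR-126a-3p (0.85), an endothelial microRNA, to miR-155-5p. No microRNA was among the 3 nearest to the same member in more than 1 tissue.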

How the data were processed

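Small RNA was sequenced from 21 myocardium, 21 amniotic fluid and 14 maternal serum samples. RNA of myocardium came from wax blocks. Libraries of myocardium and serum were made with a TruSeq kit (HiSeq 2500) and those of amniotic fluid with a QIAseq kit (NovaSeq 6000). Per the submitters' processing notes, bcl2fastq 2.19 and DESeq were used. The aligner, the microRNA annotation, the build and the use of molecular identifiers are not given in the sources used here. The authors deposited raw read counts per mature microRNA in 5 tables, with a normalized signal (42 columns, myocardium and serum), CPM (28 columns, amniotic fluid) and group means (4 columns), of which only the counts were used. The deposited tables also hold the authors' comparison as a log2 value, a p-value and, for myocardium and serum, a fold, and these were not used. The NC counts of a tissue were the same in both of its tables and entered once, and microRNAs listed in 1 table only had 0 NC counts.

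The counts were fitted with edgeR 4.0.16 under R 4.3.3 (filterByExpr at its defaults, 10 for the count and 15 for the total, TMM scaling, quasi-likelihood test, Benjamini-Hochberg adjustment over all tested microRNAs, threshold 0.05). Each DMO group was fitted with NC alone, and VSD against non-VSD and all exposed samples against NC in a fit of 3 groups. log2 CPM use a prior count of 2. Single values were compared by exact two-sided permutation tests over 3432 groupings, adjusted over 20 tests. The alternatives were library size or RLE scaling, DESeq2 1.42.0, limma 3.58.1 on log2(CPM + 1), no filter, a filter of 10 or more counts in all samples, other sets of groups, a replicate block, and leaving out 1 library at a time. The procedure was tested on simulated data with 200 changed microRNAs, where at most 2.06% of unchanged microRNAs were called. Sequences came from RefSeq (GRCr8), in which 617 of the 682 names had a mature sequence. Figures were drawn with matplotlib 3.10.9.

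The members, lists and tests were chosen with earlier results of these data known. The microRNAs named are the 3 members, their other arms, the 3 nearest by correlation in each tissue, the neighbours in the order of fold changes, and called members of the inflammation list, to which a few members with known roles were added after their values had been seen.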

Additional observations from a re-analysis of the deposited data

Results flagged for a closer look

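The sets examined were 28 sets of 7 samples, each a member's CPM or the miR-146a-5p share in 1 group, and did not include every such set. Among them, 5 held a sample whose gap to the nearest of the others took up more than 0.568 of the whole range, where chance gives about 1 in 20. miR-155-5p in non-VSD fluid, at 0 CPM in 6 samples and 54.9 CPM in replicate 2, is not among these 5. In maternal serum, VSD replicate 3 had 5818 CPM of miR-146a-5p (others 3219 to 4167 CPM) and 323 CPM of miR-155-5p (others 54.8 to 125 CPM). In NC myocardium, replicate 3 had 1893 CPM of miR-146b-5p (others 911 to 1251 CPM). In VSD myocardium, replicate 7 had 477 CPM of miR-146b-5p (others 882 to 1140 CPM) and the highest share of miR-146a-5p, 51.7% (others 28.5% to 34.8%), at 511 CPM of miR-146a-5p itself, the median of its group. No explanation of these values was tested.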

How the results depend on the processing

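Over the 23 pairs of a member and a comparison, 535 alternative fits were made, of which 513 kept the direction, 20 changed sign and 2 changed in size. In the myocardium comparisons against NC the members carry no test, and the side of the threshold is not given. In the other comparisons no fit brought a member to an adjusted p under 0.05. Library size alone gave 1.46 for miR-146a-5p and 0.13 for miR-146b-5p in VSD against NC myocardium, -0.060 for miR-146b-5p in all exposed against NC myocardium, and -0.017 for miR-146b-5p in non-VSD against NC fluid, which the fit of 3 groups put at -0.063. For miR-155-5p, limma gave -0.063 in serum and -0.073 in VSD against non-VSD myocardium. Leaving out 1 library at a time gave -0.20 to 0.21 for miR-146b-5p in non-VSD against NC fluid, -0.27 to 0.27 for miR-155-5p in serum, and -0.26 to 0.26 for miR-155-5p in VSD against non-VSD myocardium. The causes were not tested.

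The number of microRNAs called also depended on the processing. In VSD against NC myocardium (2 called) it was 38 with library size alone, 5 with RLE, 46 with DESeq2, 1 with no filter, 15 with at least 10 counts everywhere, 25 with 3 groups in 1 fit, and 0 to 77 when 1 library was left out. In non-VSD against NC myocardium (1 called) these were 22, 6, 48, 3, 8, 7 and 0 to 19, with 0 by limma. For all exposed myocardium (41 called) DESeq2 called 66, no filter left 25, and leaving out 1 library 15 to 61. The highest of each range was without NC replicate 2. In fluid, VSD against NC (0 called) had 1 by limma and 0 to 1 when 1 library was left out. Non-VSD against NC (12 called) had 29 by DESeq2, 5 by limma and 0 to 21. All exposed (2 called) had 1 with RLE, 16 with DESeq2, 0 with no filter, 8 with at least 10 counts everywhere, 0 as 1 factor of 2 levels and 0 to 4. VSD against non-VSD (0 called) had 1 with library size alone, 6 with DESeq2, 4 with at least 10 counts everywhere and 0 to 3. Serum (0 called) had 4 with DESeq2, 3 with no filter and 0 to 2.

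Replicate numbers were not used as pairs in the main fits, and whether they mark paired samples was not tested. The correlation of deviations of same-numbered libraries was above 0.1 in at most 5 of 7 pairs of any comparison. Its median over the pairs ran from -0.19 in VSD against NC myocardium to 0.17 in VSD against non-VSD myocardium, and was 0.15 in serum. With the replicate number as a block, miR-155-5p gave -0.048 in serum and -0.011 in VSD against non-VSD myocardium. The block left 0 called in VSD and 0 in non-VSD against NC myocardium, 5 in all exposed myocardium, 2 in non-VSD and 1 in all exposed fluid, and 5 in serum. Depth limits amniotic fluid most, where the smallest library held 78188 counts.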

Other observations

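The other arms of the same hairpins were rare beside the guide strands. In myocardium, miR-146a-3p had 156 counts against 56830 of miR-146a-5p, a share of 0.274% (exact 95% interval 0.233% to 0.320%), miR-146b-3p had 365 counts (0.276%, 0.248% to 0.305%) and miR-155-3p had 113 counts (0.843%, 0.695% to 1.01%). The intervals cover counting error only. In serum, the other arm of miR-146b-5p had 54 counts, a share of 1.58% (1.19% to 2.06%).

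In myocardium, miR-146a-3p was at 0.162 to 1.65 CPM in NC, 0.423 to 2.66 CPM in VSD and 0.669 to 1.78 CPM in non-VSD samples. miR-155-3p did not move with its guide strand in VSD myocardium. It was at 0 to 0.771 CPM in VSD, 0 to 1.20 CPM in NC and 1.24 to 1.76 CPM in non-VSD samples, with 27 counts in the 7 VSD libraries and 57 in the 7 non-VSD libraries, and it failed the filter on low counts. These arms were looked at after their values were seen and no test was made.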
